A study of Mus musculus with 6 samples.

Results

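The genes described here encode nuclear subunits and assembly factors of complexes I and III of the mitochondrial respiratory chain. They were taken as every gene of the counts table whose symbol starts with Nduf or Uqc, pseudogene symbols excluded, which gave 57 of the 21960 genes, 46 of them Nduf and 11 Uqc. RNA-Seq had been performed on 3 mock and 3 p140Cap libraries of TuBo cells, to compare cells that overexpress the adaptor protein p140Cap with control cells. TuBo is a line from a mammary carcinoma of a BALB/c-MMTV-NeuT mouse, in which the MMTV promoter drives the rat Neu (HER2) oncogene, so both groups carry that transgene. The p140Cap cells had received p140Cap cDNA in the retroviral vector pBabe-puro with puromycin selection, and were a pool of individually isolated clones. The labels give the mock cells as the wild-type genotype of the same line and do not describe what the mock cells received. They call the samples cell lines in one place and mice in another, and do not say whether the libraries of a group came from separate cultures, so p-values measure the spread between libraries, which may be technical.

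Complex I takes electrons from NADH and hands them to ubiquinone, and complex III passes them from ubiquinol to cytochrome c, with both complexes pumping protons across the inner mitochondrial membrane. Complex I is an L-shaped assembly with a matrix arm, where NADH is oxidised by a chain of iron-sulfur clusters, and a membrane arm, where protons are moved. Its core subunits carry out the chemistry, accessory subunits surround them, and assembly factors help to build the complex without staying in it. Its membrane-arm core and the cytochrome b of complex III are encoded in mitochondrial DNA. None of the 8 mitochondrially encoded genes of complexes I and III was in the table, and they are not analysed here.

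The 57 genes comprised 7 core subunits of complex I, 9 accessory subunits of its matrix arm, 20 of its membrane arm (Ndufab1, an acyl carrier protein present in both arms, was counted here), 8 complex I assembly factors, 8 subunits of complex III, 3 complex III assembly factors, and the paralogs Ndufa4 and Ndufa4l2. Ndufa4 bears a complex I name but its protein is now placed with cytochrome c oxidase (complex IV). All but 1 passed the filter on low counts, and the 56 that passed were tested among 11800 genes with edgeR's quasi-likelihood test. A gene is said below to have risen or fallen in p140Cap cells where its Benjamini-Hochberg adjusted p over all 11800 genes was under 0.05. Ndufa4l2, known to be induced in hypoxia, was covered by 3, 1 and 1 reads in mock replicates 1 to 3 and by 0 in each p140Cap library, at or under the 3 reads set as the floor, so no fold is given.

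Total reads on genes ranged from 33058719 to 75506562 in mock and from 13770385 to 15364850 in p140Cap libraries, a ratio of 2.62 between the group medians. Srcin1, which encodes p140Cap, had 12.8 to 16.6 CPM (counts scaled to library size) in mock and 2244 to 2519 CPM in p140Cap libraries, so every library matched its label. Of 6 mammary epithelial markers, 5 were expressed (summed level 5245 to 5570 CPM in mock and 6184 to 6339 CPM in p140Cap libraries), with Krt19 near 0. The summed immune markers stood at 2.04 to 2.34 CPM in mock and 3.23 to 4.09 CPM in p140Cap libraries, with Ptprc, Adgre1 and Cd3e at 0 in all libraries. Fibroblast markers summed to 9.93 to 10.5 CPM and 11.3 to 14.1 CPM with Col1a2 and Dcn at 0, endothelial markers reached at most 0.734 CPM with Kdr at 0, and myoepithelial markers at most 0.270 CPM. The markers that passed the test rose: Epcam by 0.42, Krt18 by 0.24 and Cdh1 by 0.11 in the epithelial list, Cd68 by 0.83 from 2.14 ± 0.176 CPM, Col1a1 by 0.80 from 2.97 ± 0.581 CPM and Pecam1 by 1.25 from 0.271 ± 0.142 CPM, all on the log2 scale. Their part in the results below was not tested.

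The promoters of the 6 genes that changed by at least 0.5 log2 units are given here, because each is described on its own below and because complex I genes are known targets of the transcription factors NRF1, GABPA and YY1. Each sequence runs 5′ to 3′ on the gene's strand from 250 bases before to 50 bases after a RefSeq start site on GRCm38.p6, and is 300 bases long. Capitals mark the words searched, on either strand: GCGCA and GCGC separated by 1 base for NRF1, CCGGAAG for the ETS factor GABPA, AAGATGGCG for YY1, TCAAGGTCA for ERR, CACGTG for an E-box, TATAAA for a TATA box and CCAAT for NFY. The words were chosen after the expression values were known. The windows are chr4:24897833-24898132 (plus strand) for Ndufaf4, chr2:140170396-140170695 (plus) for Ndufaf5, chr13:108158576-108158875 (minus) for Ndufaf2, chr17:31519865-31520164 (plus) for Ndufv3, chr19:4012706-4013005 (minus) for Ndufv1 and chr19:3912725-3913024 (minus) for Ndufs8.
Ndufaf4: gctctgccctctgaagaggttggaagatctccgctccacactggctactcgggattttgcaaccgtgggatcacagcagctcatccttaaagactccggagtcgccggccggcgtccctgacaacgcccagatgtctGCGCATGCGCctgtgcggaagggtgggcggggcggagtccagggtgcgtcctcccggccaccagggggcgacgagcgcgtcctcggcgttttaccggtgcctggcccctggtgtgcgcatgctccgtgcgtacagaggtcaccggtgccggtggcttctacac
Ndufaf5: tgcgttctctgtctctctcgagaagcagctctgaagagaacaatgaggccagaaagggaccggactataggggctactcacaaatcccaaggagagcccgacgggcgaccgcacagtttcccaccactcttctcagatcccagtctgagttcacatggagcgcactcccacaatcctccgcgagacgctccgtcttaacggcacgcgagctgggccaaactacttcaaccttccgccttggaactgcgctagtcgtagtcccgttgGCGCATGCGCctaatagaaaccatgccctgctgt
Ndufaf2: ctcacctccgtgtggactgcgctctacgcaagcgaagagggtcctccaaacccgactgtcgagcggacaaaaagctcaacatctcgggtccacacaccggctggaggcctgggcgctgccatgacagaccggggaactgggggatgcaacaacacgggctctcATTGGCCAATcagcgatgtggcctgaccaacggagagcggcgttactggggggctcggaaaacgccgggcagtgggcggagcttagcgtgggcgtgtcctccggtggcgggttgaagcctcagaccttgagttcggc
Ndufv3: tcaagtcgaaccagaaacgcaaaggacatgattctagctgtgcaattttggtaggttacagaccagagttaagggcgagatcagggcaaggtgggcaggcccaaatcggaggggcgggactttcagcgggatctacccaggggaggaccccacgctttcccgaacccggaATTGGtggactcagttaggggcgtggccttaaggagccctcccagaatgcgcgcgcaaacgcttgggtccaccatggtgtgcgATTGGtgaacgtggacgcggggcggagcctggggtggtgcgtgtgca
Ndufv1: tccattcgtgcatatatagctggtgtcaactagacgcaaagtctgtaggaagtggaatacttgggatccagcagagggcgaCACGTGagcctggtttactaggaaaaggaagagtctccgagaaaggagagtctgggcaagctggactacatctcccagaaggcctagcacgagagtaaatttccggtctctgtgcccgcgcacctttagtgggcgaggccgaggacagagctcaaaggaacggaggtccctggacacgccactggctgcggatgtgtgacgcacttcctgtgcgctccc
Ndufs8: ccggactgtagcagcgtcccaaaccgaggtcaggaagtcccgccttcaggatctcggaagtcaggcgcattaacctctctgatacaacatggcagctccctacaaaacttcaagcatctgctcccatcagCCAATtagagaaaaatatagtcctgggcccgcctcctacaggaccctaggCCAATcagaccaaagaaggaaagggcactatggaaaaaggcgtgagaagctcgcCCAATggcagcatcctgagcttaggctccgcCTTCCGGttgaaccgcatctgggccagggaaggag
Ndufaf4 and Ndufaf5 carried the NRF1 word, Ndufaf2, Ndufv3 and Ndufs8 the CCAAT word, Ndufs8 also the ETS word, and Ndufv1 an E-box. None of the 6 windows held the YY1, ERR or TATA word.

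Across the tested genes, more fell than rose, and nearly all changes were small. In p140Cap cells 27 of the 56 fell (48.2%) and 6 rose (10.7%), while 23 did not pass the test. Over all 11800 genes 71.1% passed the test, with 35.9% lower and 35.2% higher, so the share of the Nduf and Uqc genes that passed (33 genes, 58.9%) was below the background. That order turned with no filter on low counts, where 41 of 57 passed, against 55% of all genes. It held with at least 10 reads in every library (35 of 56, against 72%) and with DESeq2 (29 of 56, against 54.9%). The median of their log2 fold changes was -0.14, and that of all genes -0.00, and 43 of the 56 values were negative. The middle of the distribution ran from -0.30 to -0.03 (quartiles), against -0.32 to 0.31 over all genes.

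The sizes of the changes were also below those of other genes. The median absolute log2 fold change was 0.18 for the Nduf and Uqc genes and 0.32 over all genes. Among the 9384 genes whose mean CPM lay within the range of these genes, it was 0.29. A change of at least 0.5 log2 units that passed the test was seen in 6 of the 56 genes (10.7%), against 30.8% of all genes and 26.9% of genes in the same CPM range. Of these 6, Ndufv3 rose and Ndufaf4, Ndufaf2, Ndufv1, Ndufaf5 and Ndufs8 fell. Ndufs8 (-0.50) and Ndufaf5 (-0.56) lay nearest to the limit and did not reach it in some alternative analyses. These are descriptions with no test of the group of genes. Mock and p140Cap values were fully apart for 31 of the 56 genes, against 73.4% of all genes tested.

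**Figure D1:**
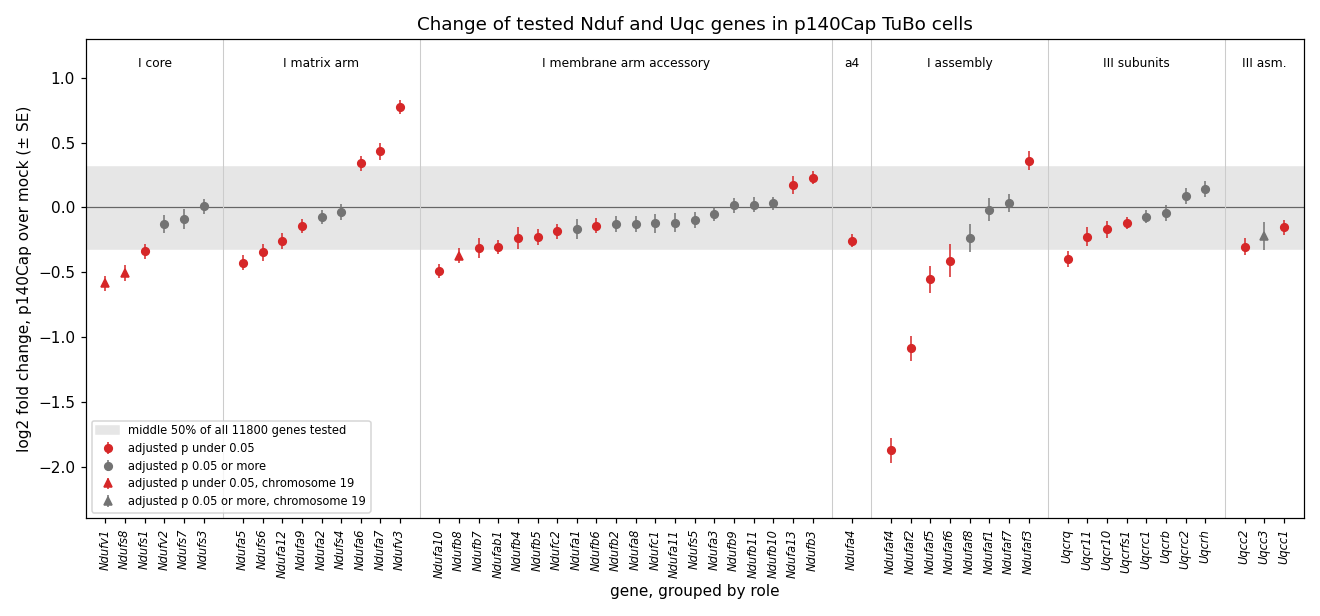
Log2 fold change (p140Cap over mock) with its SE for the tested genes named on the plot, grouped by role on the horizontal axis, where "a4" is Ndufa4 and "asm." is assembly. Red marks an adjusted p under 0.05, triangles mark chromosome 19, and the grey band is the middle 50% of all 11800 genes (-0.32 to 0.31). Most points lie between 0 and -0.5, with Ndufaf4 at -1.88 and Ndufaf2 at -1.09 far below.

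**Figure D2:**
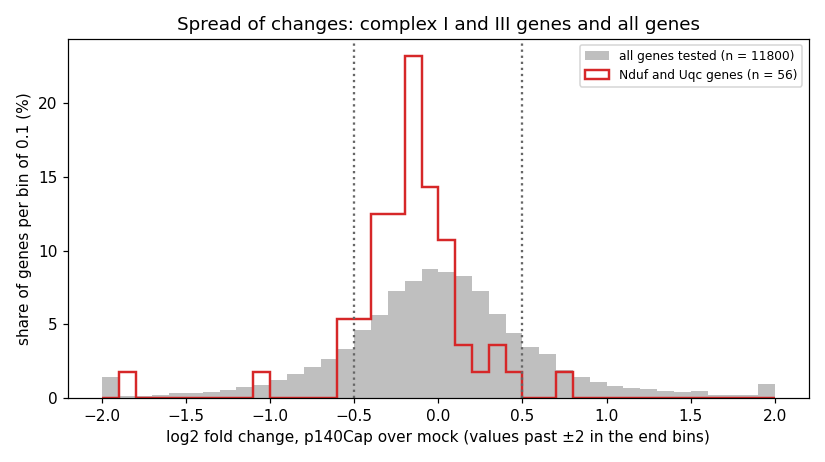
Share of genes (%) in bins of 0.1 log2 units of change for all 11800 genes tested (grey) and for the 56 Nduf and Uqc genes (red line), with dotted lines at the 0.5 limits. The red line is narrower and centred below 0, at a median of -0.14.

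The lower position was also read by library. The reads on the 57 genes made up 0.439%, 0.451% and 0.471% of all gene reads in the mock libraries and 0.411%, 0.390% and 0.421% in the p140Cap libraries. The means were 0.454% ± 0.0160 and 0.407% ± 0.0159 (SD, n = 3 each), and the groups did not overlap. The difference of -0.0465 percentage points had a two-sided exact permutation p of 0.1, the smallest that 3 against 3 libraries allow. In p140Cap replicates 1, 2 and 3, respectively, 44, 48 and 41 of the 56 genes stood below the mean of the mock libraries, as did 53, 33 and 9 in mock replicates 1 to 3, so this count did not set the groups apart. A share of reads is relative to the other RNAs of the library, and in these bulk libraries less of these mRNAs in every cell and a different mix of cells cannot be told apart.

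**Figure D3:**
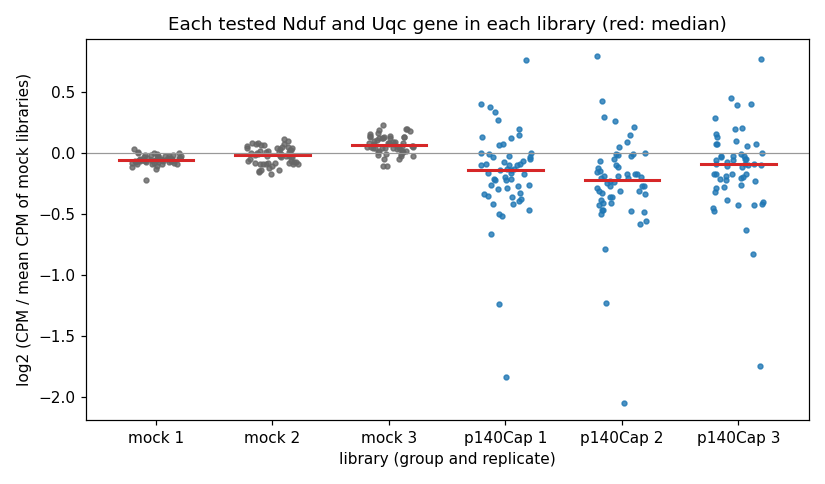
Each of the 56 tested genes (points) in each library, as log2 of its CPM over its mean CPM in the mock libraries. Red lines are medians, at -0.05, -0.02 and 0.07 in mock replicates 1 to 3 and -0.14, -0.22 and -0.09 in p140Cap replicates 1 to 3. The p140Cap medians all lie below the mock medians, and the point near -2 in each p140Cap library is Ndufaf4.

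Complex I assembly factors held the 2 largest changes. Of the 8, Ndufaf4, Ndufaf2, Ndufaf5 and Ndufaf6 fell, Ndufaf3 rose, and Ndufaf1, Ndufaf7 and Ndufaf8 did not pass the test (62.5% passed, against 71.1% of all genes). The median log2 fold change was -0.32, the lowest of the roles. Ndufaf4 (ENSMUSG00000028261, chr4:24898083-24905001, plus strand), which acts together with Ndufaf3 in early steps of matrix-arm assembly, was covered by 1640, 937 and 670 reads in mock replicates 1 to 3 and by 92, 77 and 88 in the p140Cap ones. In depth-corrected terms this was 21.4, 23.6 and 20.1 CPM in mock and 6.06, 5.24 and 6.46 CPM in p140Cap cells. Every p140Cap value lay far below every mock value, a 3.67-fold lower level. The log2 fold change was -1.88 (SE 0.10, edgeR adjusted p = 7.85e-11), which ranked 170 from the lowest of the 11800 genes.

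Ndufaf2 (ENSMUSG00000068184, chr13:108052589-108158652, minus strand) is a paralog of the accessory subunit Ndufa12 and is released when Ndufa12 takes its place late in assembly. Its values were 21.8, 23.5 and 23.5 CPM in mock and 9.69, 9.74 and 12.9 CPM in p140Cap libraries. The groups were widely apart, with a log2 fold change of -1.09 (SE 0.09, edgeR adjusted p = 2.46e-08), or 2.13-fold lower. Ndufa12 itself stood at 52.1 ± 2.83 CPM in mock and 43.5 ± 2.66 CPM in p140Cap cells (SD, n = 3 each), a log2 fold change of -0.26 (edgeR adjusted p = 0.00117).

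Ndufaf5 (ENSMUSG00000027384, chr2:140170584-140218965, plus strand), which modifies the core subunit Ndufs7, was at a low level of 8.85, 9.68 and 9.67 CPM in mock and 6.66, 5.45 and 6.98 CPM in p140Cap libraries. The groups did not overlap, and the log2 fold change was -0.56 (SE 0.11, edgeR adjusted p = 0.000178). Its target Ndufs7 gave 57.2 ± 7.42 CPM in mock and 53.5 ± 3.69 CPM in p140Cap cells and did not pass the test (log2 fold change -0.09, edgeR adjusted p = 0.313). Ndufaf3, the partner of Ndufaf4, moved the other way: it rose from 15.5, 15.3 and 17.2 CPM to 20.8, 19.6 and 21.1 CPM, a log2 fold change of 0.36 (SE 0.07, edgeR adjusted p = 0.000336), with no overlap between the groups. Ndufaf7, an assembly factor with methyltransferase activity, had 19.1 ± 0.473 and 19.5 ± 1.21 CPM, and Ndufaf1, a member of the membrane-arm assembly complex, 17.9 ± 0.551 and 17.7 ± 2.67 CPM, in mock and p140Cap cells. Their log2 fold changes were 0.03 and -0.02, and the libraries of the groups overlapped for both.

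**Figure D4:**
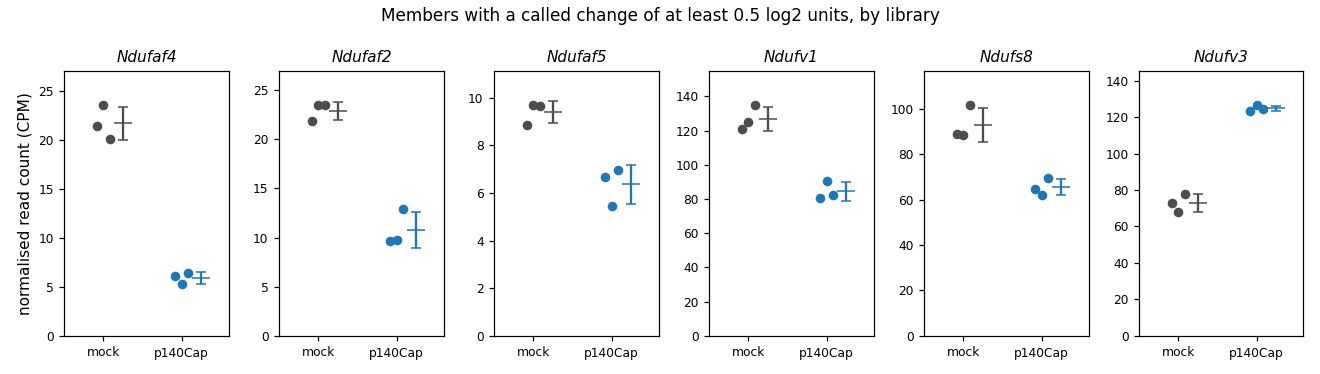
CPM in each library (points) with the mean ± SD beside them for the 6 genes that changed by at least 0.5 log2 units, mock in grey and p140Cap in blue, each panel starting at 0. In all 6 panels the points of the groups are apart: Ndufv3 is higher in p140Cap cells, at 123 to 126 CPM against 67.8 to 78.1, and the other 5 genes are lower.

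Among the 7 core subunits of complex I, all in the matrix arm, 4 fell and none rose (57.1% passed, against 71.1% of all genes), and the median on the log2 scale was -0.18. Ndufv1 (ENSMUSG00000037916, chr19:4007499-4012755, minus strand), the flavin-binding subunit that takes the electrons from NADH, fell most, from 121, 125 and 135 CPM to 80.3, 90.7 and 82.1 CPM. Its log2 fold change was -0.59 (SE 0.06, edgeR adjusted p = 1.18e-07), and no p140Cap library reached a mock library. Ndufs8 (ENSMUSG00000059734, chr19:3908863-3912774, minus strand), an iron-sulfur subunit nearer to the ubiquinone site, fell from 89.2, 88.5 and 102 CPM to 64.9, 62.3 and 69.5 CPM (log2 fold change -0.50, SE 0.06, edgeR adjusted p = 1.79e-06). Both lie in the same stretch of chromosome 19. Ndufs1, the largest iron-sulfur subunit, also fell, at -0.34. At the other end stood Ndufs3, with 71.1, 76.4 and 77.1 CPM in mock and 70.1, 77.5 and 78.0 CPM in p140Cap libraries. Its log2 fold change was 0.01 (SE 0.06, edgeR adjusted p = 0.908), so a change of this core subunit was not detected.

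Of the 9 accessory subunits of the matrix arm 4 fell (44.4%) and 3 rose (33.3%), beside 35.9% and 35.2% of all genes, with a median of -0.08. Ndufv3 (ENSMUSG00000024038, chr17:31520115-31531326, plus strand), which sits beside Ndufv1 at the NADH-oxidising tip, rose most of all 56 genes. Its values were 72.8, 67.8 and 78.1 CPM in mock and 123, 126 and 125 CPM in p140Cap libraries, 1.71-fold higher. The log2 fold change was 0.78 (SE 0.05, edgeR adjusted p = 1.9e-09) which ranked 929 from the highest of the 11800 genes. Ndufa7 also rose, from 51.0, 51.0 and 61.1 CPM to 71.8, 73.1 and 74.3 CPM (log2 fold change 0.43, SE 0.07, edgeR adjusted p = 1.95e-05). Ndufa6 rose by 0.34. Ndufa5 fell from 43.6, 43.2 and 45.9 CPM to 34.5, 31.3 and 32.8 CPM (log2 fold change -0.43, SE 0.06, edgeR adjusted p = 5.91e-06), and Ndufs6, a zinc-binding subunit that joins late in assembly, fell by 0.35. Neighbouring subunits of the same arm thus moved in opposite directions, Ndufv3 up and Ndufv1 down, each without overlap between the groups.

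The 20 accessory subunits of the membrane arm changed little. None reached 0.5 log2 units, 8 fell, 2 rose and 10 did not pass the test, so that 50% passed against 71.1% of all genes. Their values ran from -0.49 to 0.23 with a median of -0.13. The lowest was Ndufa10, just inside that limit, at 95.9, 104 and 98.0 CPM in mock and 72.0, 67.5 and 72.9 CPM in p140Cap libraries (log2 fold change -0.49, SE 0.05, edgeR adjusted p = 3.84e-07). Ndufb8, a subunit often used as a marker of assembled complex I, fell from 122, 119 and 139 CPM to 99.9, 96.8 and 95.8 CPM (log2 fold change -0.37, SE 0.06, edgeR adjusted p = 2.47e-05). Both were lower in every p140Cap library than in any mock library. The 2 that rose were Ndufb3, by 0.23 (SE 0.05, edgeR adjusted p = 0.000951), and Ndufa13, also known as GRIM-19, by 0.17 (SE 0.07, edgeR adjusted p = 0.0366). The groups overlapped for Ndufa13, at 68.6, 63.9 and 80.4 CPM in mock and 78.8, 78.7 and 81.8 CPM in p140Cap libraries. Its call was lost without mock replicate 1 or 2 and without p140Cap replicate 1 or 3, with log2 fold changes of 0.14, 0.10, 0.18 and 0.15, respectively, while without mock replicate 3 the value was 0.26.

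Changes of complex III genes were small. Of its 8 subunits 4 fell and none rose, with a median of -0.10, and the 50% that passed stood below the 71.1% of all genes. Uqcrq, a small subunit at the ubiquinone-binding side, fell most, from 75.4, 73.6 and 85.5 CPM to 61.2, 56.7 and 59.9 CPM, with a log2 fold change of -0.40 (SE 0.06, edgeR adjusted p = 2.26e-05) and no overlap. Uqcr11 fell from 73.3 ± 9.24 to 62.5 ± 1.25 CPM (SD, n = 3 each), a log2 fold change of -0.23 (edgeR adjusted p = 0.0107), or -0.13 without mock replicate 3. The core protein Uqcrc2 and the hinge protein Uqcrh had the highest values, 0.08 and 0.14, and did not pass the test (edgeR adjusted p = 0.234 and 0.0527). The count of 4 fell to 2 without mock replicate 3 or without p140Cap replicate 1, and without p140Cap replicate 2 Uqcrc2 and Uqcrh passed the test at 0.14 and 0.21. In the other direction, Uqcrc2 was at 0.03 without mock replicate 3 and Uqcrh at 0.06 without p140Cap replicate 3.

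Complex III assembly factors bring cytochrome b into the complex. Uqcc2 fell from 62.6, 61.6 and 64.6 CPM to 51.7, 45.6 and 55.8 CPM, with a log2 fold change of -0.30 (SE 0.06, edgeR adjusted p = 0.00041). Its partner Uqcc1 stood at 31.7 ± 0.801 and 28.5 ± 0.461 CPM in mock and p140Cap cells (log2 fold change -0.15, edgeR adjusted p = 0.026). That call was lost without mock replicate 1 and without p140Cap replicates 2 or 3, at -0.16, -0.15 and -0.15. Uqcc3 gave 15.0, 15.1 and 19.3 CPM in mock and 12.5, 14.0 and 15.5 CPM in p140Cap libraries, which overlapped (log2 fold change -0.22, SE 0.11, edgeR adjusted p = 0.0724). It passed the test without mock replicate 1 or 2 or p140Cap replicate 3, at -0.30, -0.27 and -0.30, and moved towards 0 without mock replicate 3 (-0.11), without p140Cap replicate 1 (-0.15) and after all libraries were thinned to the smallest total (-0.09). Ndufa4, the complex IV protein with a complex I name, fell from 195, 204 and 213 CPM to 175, 162 and 174 CPM (log2 fold change -0.26, SE 0.05, edgeR adjusted p = 0.000216).

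Levels of different genes were compared per length, as CPM per kilobase of the median annotated protein-coding transcript of each gene, a value that depends on that choice of length. In mock cells the highest levels were those of Ndufa4 (404 ± 17.3), Uqcrb (252 ± 10.7) and Uqcr10 (200 ± 18.1, SD, n = 3 each). The lowest were those of Ndufa4l2 (0.033), Ndufaf5 (3.68 ± 0.187) and Ndufaf1 (3.89 ± 0.119). By their medians, structural subunits stood above the factors that assemble them. The median level was 72.3 for complex I core subunits, 90.0 and 80.8 for the accessory subunits of the matrix and membrane arms, and 123 for complex III subunits, but 8.50 for complex I and 14.2 for complex III assembly factors. Ndufaf4, the gene that fell most, went from 5.99 ± 0.479 to 1.63 ± 0.171 per kilobase. Of the 44 tested structural subunits of both complexes, 3 passed 0.5 log2 units (6.82%), and of the 11 assembly factors 3 did (27.3%), beside 30.8% of all genes. Uqcc2 had the highest level among the assembly factors, at 130 ± 3.21.

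Position on the genome went with the change for some of these genes. Chromosome 19 carried Ndufv1, Ndufs8, Ndufb8 and Uqcc3, all with negative values. Their median was -0.44 on the log2 scale, and 3 of the 4 fell. All 424 tested genes of chromosome 19 had a median of -0.34, and 65.1% of them fell, against 34.8% of the genes on the other chromosomes. Within 1 Mb on either side, the other tested genes had a median of -0.28 around Ndufv1 and around Ndufs8, -0.27 around Ndufb8 and -0.45 around Uqcc3. Of the nearest genes, Gstp1 (-0.60) beside Ndufv1, Hif1an (-0.49) beside Ndufb8 and Lbhd1 (-1.10) beside Uqcc3 fell. Tcirg1 (0.05) and Aldh3b1 (-0.05) beside Ndufs8 and Doc2g (-0.01) beside Ndufv1 did not pass the test. Neither did Ubxn1 (-0.08) beside Uqcc3 and Sec31b (-0.49, SE 0.40) beside Ndufb8. Without the 4, the other 52 genes had a median of -0.13, with 24 lower and 6 higher. What the position contributed to the change of these 4 genes was not tested, and the choice of the 1 Mb windows was made after the values were known.

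The other large changes were read beside their neighbours in the same way. Around Ndufaf4, 3 genes within 1 Mb were tested, at log2 fold changes whose median was -0.65, with values from -0.89 to 0.11, and the nearest, Klhl32, lay 46933 bases away and stood at -0.89 (SE 0.32, edgeR adjusted p = 0.0212). Ufl1, on the other side at 342148 bases, was at 0.11 and did not pass the test. Around Ndufaf5 the median of 4 genes was -0.53, and around Ndufaf2 that of 7 genes was -0.27. Around Ndufv3 the 18 tested neighbours had a median of 0.04.

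Some genes of these complexes start next to another gene on the opposite strand, so that both are transcribed away from a shared upstream region. Of the 56 tested genes, 19 had such a tested neighbour with its start within 1000 bases in RefSeq. In 9 of the 19 pairs both genes passed the test, in the same direction in 7 and in opposite directions in 2, and 11 of the 19 pairs had the same sign. The share of genes with such a neighbour, and of pairs in which both passed, was not computed over all genes. These counts therefore stand without a background, and a link within pairs was not tested. The neighbours, named here after their values were seen, fell in 7 and rose in 5 of the 19 pairs, beside the 71.1% of all genes that passed the test in either direction. Ndufaf2 starts 59 bases from Ercc8, a nucleotide excision repair gene, in the window printed above, and Ercc8 went from 15.5 ± 0.790 CPM in mock to 7.90 ± 0.625 CPM in p140Cap cells (SD, n = 3 each). Its log2 fold change of -0.98 (SE 0.09, edgeR adjusted p = 5.26e-08) was near the -1.09 of Ndufaf2. Ndufaf5 and Esf1, a gene of ribosomal RNA processing 26 bases away, were likewise close, at -0.56 and -0.58.

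Both genes also fell in 3 other pairs. Ndufs6 and Mrpl36, 21 bases apart, were at -0.35 and -0.73, Ndufb5 and Mrpl47, 302 bases apart, at -0.23 and -0.44, and Ndufs1 and the elongation factor gene Eef1b2, 9 bases apart, at -0.34 and -0.46. Both genes rose in the pairs Ndufaf3 and Dalrd3 (0.36 and 0.33, 48 bases) and Ndufb3 and Fam126b (0.23 and 0.52, 64 bases). Ndufa7 rose by 0.43, while the ribosomal protein gene Rps28, 10 bases away, was at -0.07 and did not pass the test (edgeR adjusted p = 0.379). The direction differed for Ndufv3 and the transfer RNA methylation gene Wdr4, 130 bases away, at 0.78 and -0.37, and for Uqcr10 and Zmat5, 312 bases away, at -0.17 and 0.20. The call of Uqcr10 was lost without mock replicate 3 and without p140Cap replicates 1 or 2, at -0.10, -0.18 and -0.13, so this pair is the least certain of the 9. Of the 57 genes, 41 overlap another annotated gene, 10 of them on the same strand, and no source used here says whether strand was used in counting, so values of overlapping genes are uncertain.

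**Figure D5:**
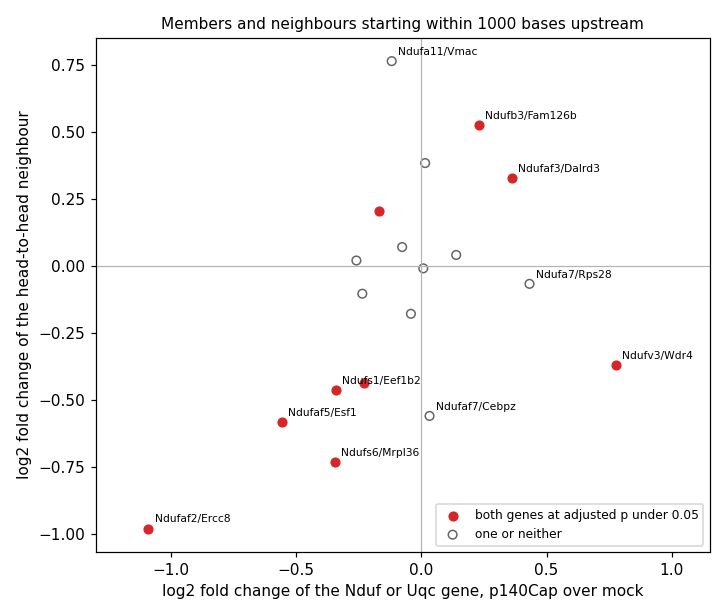
Log2 fold change (p140Cap over mock) of each of 19 Nduf, or Uqc, genes on the horizontal axis and of the neighbour that starts within 1000 bases on the opposite strand on the vertical axis. Filled red points are the 9 pairs with both genes at an adjusted p under 0.05: 7 lie where both values have the same sign, with Ndufaf2 and Ercc8 lowest, and Ndufv3 and Wdr4 lie in opposite directions.

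Promoter windows were at hand for 48 of the 57 genes, among 27025 mouse genes with a window. That larger set is not limited to the 11800 genes tested, and was not matched to the 48 for expression or base content. The NRF1 word was in 11 of the 48 (22.9%), against 5.19% of all genes, the YY1 word in 6 (12.5% against 1.64%) and the ETS word in 8 (16.7% against 9.93%). The ERR word was in none (0.466% of all), and the TATA word in 8.33% against 15.7%. The 11 genes with the NRF1 word included Ndufaf4 (-1.88), Ndufaf5 (-0.56) and Ndufa5 (-0.43), which fell, Ndufa6 (0.34), which rose, and Uqcrc1 (-0.07), which did not pass the test. It was in 6 of the 23 genes with a window that fell, 1 of the 6 that rose and 4 of the 19 that did not pass the test. The CCAAT word was in 7 of the 23, 5 of the 6 and 6 of the 19, respectively, against 41.1% of all genes. These are matches of letters, given with no test.

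A list of 14 factors of respiratory gene expression changed in both directions: 8 fell and 2 rose, with a median log2 fold change of -0.22. Over all genes, 35.9% were lower and 35.2% higher. Of the 14, Tfam, Tfb1m, Tfb2m and Polrmt act on mitochondrial DNA and not on nuclear genes. Tfam (-0.33), Tfb2m (-0.41) and Polrmt (-0.23) are among those that fell, and Tfb1m (-0.17) did not pass the test. The share that passed in either direction, 10 of 14, was near the 71.1% of all genes. Pprc1, a PGC-1-related coactivator that works with NRF1 and lies on chromosome 19, fell most, from 82.6, 84.7 and 79.2 CPM to 20.8, 22.1 and 20.6 CPM. The log2 fold change was -1.96 (SE 0.06, edgeR adjusted p = 2.03e-13). Ppargc1b fell by 0.85 (edgeR adjusted p = 0.00237), from a low level of 2.73 ± 0.609 CPM to 1.56 ± 0.0767 CPM. Myc, which drives mitochondrial biogenesis genes among many others, fell by 0.73 (edgeR adjusted p = 8.18e-09), from 72.9 ± 3.41 to 43.9 ± 2.24 CPM. Among the rest, named after their values were seen, Nrf1 fell from 50.5 ± 1.48 to 35.2 ± 0.413 CPM, a log2 fold change of -0.52. Ppargc1a, the best known coactivator of this set, rose from 48.1 ± 1.76 to 72.9 ± 2.32 CPM (log2 fold change 0.60), and Hif1a, the hypoxia factor, rose from 279 ± 5.72 to 439 ± 5.27 CPM (0.65). Gabpa and Yy1 did not pass the test, at 0.08 and -0.05.

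Genes of these complexes that bear other names were read beside them. Cyc1, the cytochrome c1 subunit of complex III, fell by 0.46 (SE 0.05, edgeR adjusted p = 1.17e-06), and the 4 complex III assembly genes Bcs1l, Lyrm7, Ttc19 and Smim4 did not pass the test, at -0.07, 0.16, 0.06 and 0.24. Cycs, cytochrome c, had been listed with them, but is the mobile carrier that takes electrons from complex III and no part of it. It fell from 39.6, 42.0 and 42.5 CPM to 20.9, 18.3 and 20.5 CPM (log2 fold change -1.05, SE 0.07, edgeR adjusted p = 6.64e-10), with no overlap between the groups. Of 11 complex I assembly genes with other names, 5 fell and 1 rose, with a median of -0.10, and the 6 that passed were a smaller share than the 71.1% of all genes. Foxred1, Aifm1 and Tmem126a fell most, at -0.56, -0.56 and -0.45. Aifm1, known also for its part in cell death and in import of respiratory subunits, went from 95.6 ± 2.91 to 64.9 ± 0.421 CPM.

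The other complexes of oxidative phosphorylation, which also have nuclear subunits, also changed mostly by small amounts. In complex V, the ATP synthase, 11 of 15 genes fell and 1 rose, with a median of -0.21, and Atp5b, Atp5k and Atp5g1 had the lowest values at -0.36, -0.33 and -0.29. In complex II, 4 of 8 fell and 1 rose, with a median of -0.13: Sdhc rose by 0.34, while Sdhaf1 and Sdhb fell by 0.34 and 0.26. In complex IV, 3 of 11 tested genes fell and 2 rose, with a median of -0.03, among them Cox5a at -0.48, Cox8a on chromosome 19 at -0.24 and Cox7a2l, a supercomplex assembly factor, at 0.24. Against 35.9% of all genes lower, 73.3% of the complex V list, 50% of the complex II list and 27.3% of the tested complex IV genes fell. The differences between these lists were not tested.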

How the data were processed

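RNA-Seq of 3 mock and 3 p140Cap libraries of TuBo cells was analysed. Following the study's methods and labels, stranded, poly(A)-selected Illumina libraries were sequenced on a NextSeq instrument. The authors deposited counts, whole numbers of reads per gene and library with no normalization. The submitters' processing notes name STAR, RSEM and mm10, with no role or order, while the paper names another build in its statement on data. No source used here says how reads of overlapping genes were counted.

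Counts were fitted in edgeR 4.0.16 under R 4.3.3 and tested by quasi-likelihood (TMM factors, filterByExpr by group, condition as sole term, two-sided, Benjamini-Hochberg adjustment over 11800 genes, threshold 0.05). CPM used TMM-adjusted library sizes, and each SE was derived from the size of the log2 fold change and its F statistic. The common biological coefficient of variation was 4.57%. No 2 libraries agreed within sampling noise (mean chi-square per gene 1.75 to 10.7). Positions, start sites and promoters came from RefSeq on GRCm38.p6, matched by symbol for all 57 genes, and transcript lengths from GENCODE. Alternatives were DESeq2 1.42.0, limma-voom 3.58.1, RLE size factors, no filter, at least 10 reads in every library, a replicate block, thinning to the smallest total and leaving out each library. The code was tested on simulated data.

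The genes, lists and tests were chosen with earlier results of these data known. Named with values were, in each role, the 2 highest and 2 lowest log2 fold changes, every change of at least 0.5, every gene that failed the filter, every gene on chromosome 19, the 3 highest and lowest levels, Ndufa4 and Ndufa4l2, and in each other list the strongest called changes, 3 at most. All other genes in the text, the neighbouring genes included, were named after their values were seen. The values of 1 gene are counted in the totals but not reported here.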

Additional observations from a re-analysis of the deposited data

How the results depend on the processing

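In 13 alternative analyses, 26 of the 33 genes that passed the test passed in every one (5 higher, 21 lower), and 13 of the 23 others passed in none. The number that passed was 33 with RLE size factors and limma-voom, 29 with DESeq2 (54.9% of all genes), 41 with no filter (55% of all genes, whose median was then -0.06), 35 with at least 10 reads in every library, 30 after thinning and 29 to 34 when 1 library was left out. The median log2 fold change stayed between -0.17 and -0.12. The number past 0.5 log2 units was 4 after thinning and 4 to 8 when 1 library was left out, lowest without p140Cap replicate 2. Ndufaf5 and Ndufs8 missed that limit after thinning (-0.47 and -0.49) and without p140Cap replicate 2 (-0.46 and -0.47). Ndufs8 also missed it without mock replicate 3 (-0.44) and without p140Cap replicate 1 (-0.4996). Labels number the libraries alike in both groups. Deviations of same-numbered libraries did not correlate (-0.03, -0.11 and -0.06), and no library correlated best with its own number. No pairing by number was seen, but with 3 libraries a group this check could miss a weak one. With the replicate block 33 genes passed, 6 higher and 27 lower. Under it Uqcc1, Ndufb6 and Uqcrfs1 lost their calls, and Uqcc3, Ndufaf8 and Ndufa1 gained one.

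The sign changed for 5 of the named genes, all with values near 0 that passed in no such analysis, and the cause was not tested. Ndufs3 (0.01) was at -0.000647 with DESeq2, -0.0224 with no filter and -0.0318 to 0.0544 when 1 library was left out. Ndufaf1 (-0.02) was at 0.00679 after thinning and -0.144 to 0.0801 when 1 library was left out. In the same leave-one-out fits Ndufs7 (-0.09) ran from -0.154 to 0.00793, Uqcrb (-0.04) from -0.104 to 0.0295 and Ndufaf7 (0.03) from -0.0207 to 0.0640. Ndufa13 and Uqcc1 lost their calls with DESeq2 (edgeR's test replaced, adjusted p = 0.0572 and 0.0695) and after thinning, as did Uqcr10 after thinning (-0.157). With 3 libraries a group and p140Cap totals 2.62 times lower at the median, small changes are detected only as far as the spread between these libraries allows.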
